A study of Homo sapiens with 6 samples.

Results

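Cyclin-dependent kinase (CDK) inhibitors, the retinoblastoma gene RB1 and MTAP were examined on 6 Illumina bead arrays of SKOV-3, a human cell line long in culture that derives from an ovarian carcinoma. The members were all probes whose single gene symbol on the platform was CDKN1A, CDKN1B, CDKN1C, CDKN2A, CDKN2B, CDKN2C, CDKN2D, MTAP or RB1. These were 15 of the 47314 probes of the array and covered 8 of the 9 genes, out of 20043 genes with a probe; CDKN2C was not analysed here. Cells of 3 arrays were transfected with siRNA against HBO1 (siHBO1), and cells of 3 arrays with a scramble siRNA (siCtrl). Both groups were the same line, purchased from a cell repository, and RNA was taken 48 h later. KAT7 is the gene that encodes HBO1, a histone acetyltransferase of the MYST family. Nothing in the labels tells whether replicates came from separate cultures, so p-values measure the spread between these arrays, which may be technical. In these bulk samples, fewer cells expressing a gene and less RNA per cell cannot be told apart.

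Progress from G1 into S phase is held back by 2 families of CDK inhibitors. The INK4 proteins (CDKN2A, CDKN2B, CDKN2C and CDKN2D) bind CDK4 and CDK6, and the CIP/KIP proteins (CDKN1A, CDKN1B and CDKN1C) act above all on complexes of CDK2 with cyclin E or A. Active kinases phosphorylate the RB protein, which otherwise holds back E2F transcription factors. CDKN2A, CDKN2B and MTAP lie next to each other in the chromosome band 9p21, a region often lost in tumours.

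The arrays had mean signals from 643 to 744, and between 42.2% and 44.3% of probes had a detection p under 0.05. Log2 values of tested probes correlated across probes at 0.975 to 0.993 between arrays of a group. Between arrays of different groups they correlated at 0.972 to 0.989, a similar range. Genes do not count as independent replicates. Log2 values of the siRNA's target KAT7 were 4.77, 5.22 and 5.45 on the siHBO1 arrays, against 5.93, 6.49 and 6.45 on the siCtrl arrays, so its groups did not overlap. Its log2 change was -1.14 (SE 0.25), with p = 0.1 in the two-sided exact permutation test, the smallest that 3 arrays against 3 allow, and a limma adjusted p of 0.999. The probe was detected on 1 of 3 siHBO1 and 3 of 3 siCtrl arrays. Without background correction the change was -0.36. Among carcinoma line markers, KRT7, KRT8, KRT18, KRT19, ERBB2, PAX8, MUC1 and EPCAM had a probe detected on all 6 arrays, and CDH1 had none detected. PTPRC and CD3E of the leukocytes and the 4 endothelial markers were detected on no array, whereas CD14 and CD68 had a probe detected on all 6. Of the 5 fibroblast markers, COL1A1 and COL1A2 were detected on all 6 arrays, while PDGFRB, DCN and LUM had no probe detected on more than 2 arrays and were not tested.

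The INK4 genes of 9p21 were detected on no array of either group, while MTAP beside them was detected on every array. Detection here means a detection p under 0.05, the deposited value that places a probe among the negative control beads of its array. The lowest signal that counted as detected was 155 to 175 on the siHBO1 arrays and 163 to 169 on the siCtrl arrays. Levels of different probes cannot be compared on these arrays, so the genes are described by detection and by their differences between groups.

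CDKN2A encodes p16INK4a, which inhibits CDK4 and CDK6, and by another first exon p14ARF, which restrains MDM2. Its 3 probes are annotated to different transcripts. The probe of the p16INK4a transcript, ILMN_1717714, had signals of 131, 144 and 140 on the siHBO1 arrays, against 142, 141 and 139 on the siCtrl arrays, with detection p from 0.205 to 0.794. The probe of the p14ARF transcript, ILMN_1744295, had signals of 131, 124 and 141 on the siHBO1 arrays, against 138, 129 and 130 on the siCtrl arrays, with detection p from 0.549 to 0.96. ILMN_1757255, annotated to a further transcript of the gene, had detection p from 0.406 to 0.971. All 3 probes were therefore below the detection limit on all 6 arrays, and the groups overlapped. Where in the gene each probe lies is not used here, so the transcripts are named only as annotated.

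CDKN2B encodes p15INK4b, an inhibitor of the same kinases that TGF-beta is known to induce. Its probe with the lowest detection p, ILMN_1723198, had signals of 148, 141 and 162 on the siHBO1 arrays, against 148, 158 and 157 on the siCtrl arrays. Its detection p was 0.171, 0.31 and 0.153 on the siHBO1 arrays and 0.243, 0.158 and 0.0922 on the siCtrl arrays. The other probes, ILMN_1670111 and ILMN_2376723, had detection p from 0.171 to 0.497 and from 0.235 to 0.822. No fold is given for CDKN2A or CDKN2B, since their probes were not detected in either group.

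MTAP, the phosphorylase that recycles methylthioadenosine from polyamine synthesis to methionine, behaved otherwise. Its probe ILMN_1753639 had signals of 695, 709 and 813 on the siHBO1 arrays, against 849, 735 and 719 on the siCtrl arrays, with a detection p of 0 on all 6. On the log2 scale after background correction and quantile normalization it had 9.35, 9.39 and 9.25 on the siHBO1 arrays and 9.40, 9.09 and 9.28 on the siCtrl arrays. The groups overlapped, and the log2 change was 0.08 (SE 0.16, 95% interval -0.28 to 0.43, limma adjusted p 0.999), or -0.0041 with median scaling in place of quantile normalization. Its range over the 6 arrays was 0.31, and 90.3% of tested probes had a range at least as wide. DNA copies were not measured, so whether any part of 9p21 is lost in these cells was not tested.

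The promoter windows of the 3 genes at 9p21 are shown because detection changed between adjacent genes there. Each window runs from 250 bases before to 50 bases after a transcription start in RefSeq (GRCh38.p14), 5′ to 3′ on the gene's strand, and CDKN2A has a window for each first exon. Capitals mark GGGCGG on either strand, the GC box letters bound by SP1.
CDKN2A, start of p16INK4a, chr9:21974808-21975107, minus strand: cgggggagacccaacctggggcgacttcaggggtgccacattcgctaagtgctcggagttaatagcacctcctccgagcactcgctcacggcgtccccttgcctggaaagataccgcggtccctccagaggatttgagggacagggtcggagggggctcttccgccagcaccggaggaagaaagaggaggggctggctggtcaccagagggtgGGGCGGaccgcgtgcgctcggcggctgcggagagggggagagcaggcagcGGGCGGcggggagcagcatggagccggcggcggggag
CDKN2A, start of p14ARF, chr9:21995275-21995574, minus strand: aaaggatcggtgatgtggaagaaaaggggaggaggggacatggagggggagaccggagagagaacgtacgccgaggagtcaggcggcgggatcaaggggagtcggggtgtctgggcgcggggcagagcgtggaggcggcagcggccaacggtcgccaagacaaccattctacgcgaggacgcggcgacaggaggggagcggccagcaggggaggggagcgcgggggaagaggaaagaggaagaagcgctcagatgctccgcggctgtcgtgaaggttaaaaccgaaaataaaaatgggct
CDKN2B, chr9:22009256-22009555, minus strand: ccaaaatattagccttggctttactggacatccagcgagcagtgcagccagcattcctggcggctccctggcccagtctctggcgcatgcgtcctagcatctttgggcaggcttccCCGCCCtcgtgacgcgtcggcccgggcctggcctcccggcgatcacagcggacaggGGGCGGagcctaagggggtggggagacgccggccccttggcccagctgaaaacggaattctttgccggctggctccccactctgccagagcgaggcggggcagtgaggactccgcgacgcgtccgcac
MTAP, chr9:21802386-21802685, plus strand: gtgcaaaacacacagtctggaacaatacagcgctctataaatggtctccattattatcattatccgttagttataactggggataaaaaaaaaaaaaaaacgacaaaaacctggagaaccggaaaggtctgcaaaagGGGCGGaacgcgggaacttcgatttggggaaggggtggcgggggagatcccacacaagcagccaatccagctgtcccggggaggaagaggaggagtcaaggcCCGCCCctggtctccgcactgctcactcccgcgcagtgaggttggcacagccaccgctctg

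Detected members had windows with both fewer and more CpG dinucleotides than those of CDKN2A and CDKN2B. The p16INK4a, p14ARF and CDKN2B windows held 26, 28 and 25 CpG dinucleotides, against a median of 14 over 34796 windows of all genes. Of detected members, the MTAP window held 15, those of CDKN1A and CDKN1B 29 each and that of CDKN2D 36. The RB1 window, at an internal start, held 0. The GC content of the p16INK4a, p14ARF and CDKN2B windows was 69.0%, 63.3% and 67.3%, and that of the MTAP window 53.0%, against a median of 58.7%. GGGCGG was counted on both strands, with overlapping matches included. It occurred 2 times in the p16INK4a, CDKN2B and MTAP windows and 0 times in the p14ARF window, and 44.9% of all windows held it. TTTNNCGC, the letters of many E2F sites, occurred in 0 of these 4 windows on either strand and in 6.86% of all windows. These counts describe the letters of the reference, not methylation or binding in the cells.

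Along 9p21, MTAP was the last gene detected on every array before 5 genes with 1 detected value among them. Of 33 genes of the region with a probe, members included, 10 had a probe detected on all 6 arrays. Before CDKN2A, in the gene order of the reference, MLLT3, FOCAD, HACD4, KLHL9, IFNE and MTAP were each detected on all 6 arrays by at least 1 probe. The next 5 genes, CDKN2A, CDKN2B-AS1, CDKN2B, DMRTA1 and ELAVL2, had 1 detected value among 60 from 10 probes and 6 arrays. That value was CDKN2B-AS1, the antisense RNA of the locus, by ILMN_1887731 on siHBO1 3 (detection p 0.0351, and at least 0.317 on the other 5 arrays). Beyond them, TUSC1, CAAP1, PLAA and IFT74 were detected on all 6 arrays by at least 1 probe, whereas LRRC19, TEK and MOB3B were detected on none. The 15 interferon alpha, beta and omega genes that lie between HACD4 and MTAP had 1 detected value among 126, that of IFNA21 on a siCtrl array. The others, IFNB1, IFNW1, IFNA4, IFNA7, IFNA10, IFNA16, IFNA17, IFNA14, IFNA5, IFNA6, IFNA13, IFNA2, IFNA8 and IFNA1, were detected on no array; most unstimulated cells do not express such genes. Why a gene was undetected was not tested.

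**Figure D1:**
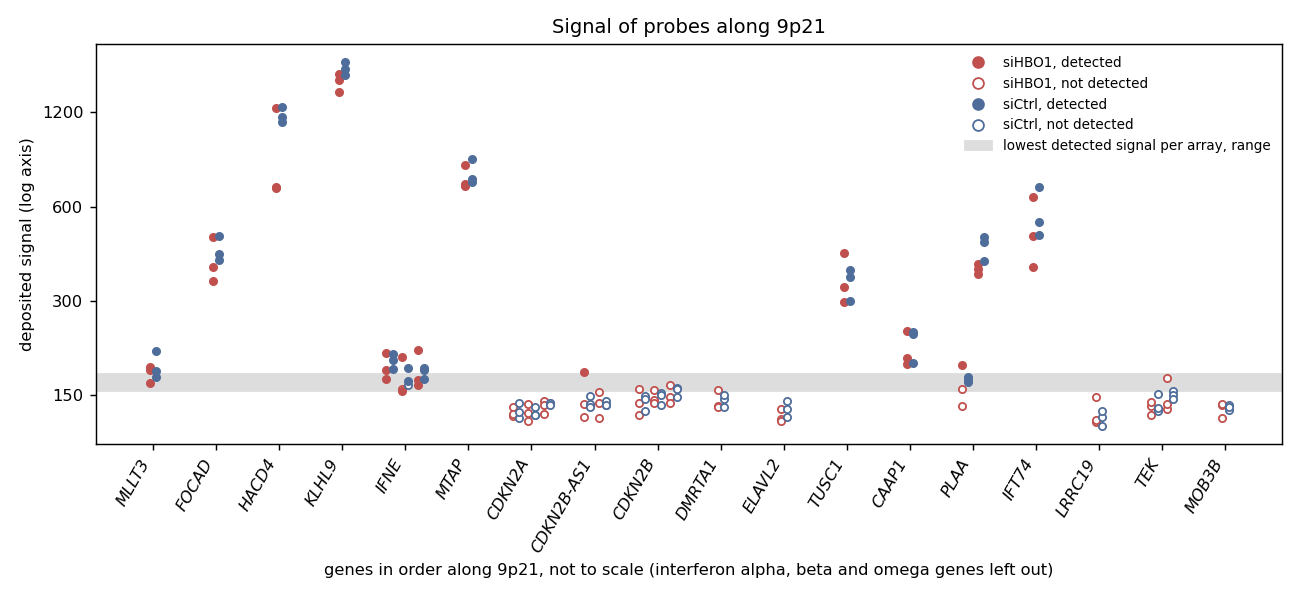
Deposited signal (log axis) of 9p21 probes on each array, with the interferon alpha, beta and omega genes left out. Genes are in reference order along 9p21 and not to scale, with siHBO1 left of siCtrl. Filled points have a detection p under 0.05, open points do not, and the grey band spans the lowest detected signal of the 6 arrays. MTAP is filled throughout, CDKN2A and CDKN2B are open throughout, and CDKN2B-AS1 has 1 filled point.

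Outside 9p21, each member analysed had a probe detected on all 6 arrays, and none differed between siHBO1 and siCtrl past the test. Of all 15 member probes, 7 passed the filter (detected on at least 3 of 6 arrays, whichever the group), that of MTAP among them. Each of the 7 was detected on all 6 arrays, and 0 of the 7 passed a limma adjusted p under 0.05. The share called over all 20744 tested probes was 0%, with a smallest adjusted p of 0.186. At an unadjusted limma p under 0.05, 1 of 7 member probes was called, against 3.73% of all tested probes. That 1 was lower in siHBO1, as were 2.01% of all, and 0 were higher, against 1.73% of all. Of the 7, 4 had negative and 3 positive changes with a median of -0.19, against 49.9% negative and a median of 0.00 over all tested probes. With 7 probes of 6 genes this is a description, and the median was 0.016 without siHBO1 2 and 0.0084 without siCtrl 3. The limma adjusted p was 0.999 for each of the 7.

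CDKN2D encodes p19INK4d, the INK4 gene outside 9p21 that could be measured here. Its probe ILMN_1748883 had log2 values of 8.67, 8.07 and 8.74 on the siHBO1 arrays, against 8.36, 8.84 and 8.998 on the siCtrl arrays. siHBO1 2 was the lowest array and siCtrl 3 the highest, and the groups overlapped. The difference between groups was -0.24 on the log2 scale (SE 0.24, 95% interval -0.79 to 0.31). The value was -0.03 without siHBO1 2 and -0.43 without siCtrl 1. The second probe, ILMN_1740597, annotated to another transcript, had detection p from 0.184 to 0.804 and was not tested.

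CDKN1A encodes p21, a CIP/KIP inhibitor that also binds PCNA. Its probe ILMN_1784602 had log2 values of 9.78, 9.53 and 10.11 on the siHBO1 arrays, against 9.95, 9.53 and 9.64 on the siCtrl arrays. Both groups thus held an array at 9.53, and the means of 9.80 ± 0.29 for siHBO1 and 9.71 ± 0.22 for siCtrl (SD, n = 3 each) lay closer together than either SD. The log2 change was 0.09 (SE 0.19, 95% interval -0.35 to 0.54), a 1.07-fold difference whose interval runs from 0.786-fold to 1.45-fold. It was -0.06 without siHBO1 3 and 0.23 without siHBO1 2, so its sign depended on single arrays. The other probe, ILMN_1787212, annotated to another transcript of the gene, was detected on no array (detection p 0.357 to 0.921).

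CDKN1B encodes p27, which binds cyclin E and CDK2 and is removed by the SKP2 ubiquitin ligase. Its 2 probes, annotated to the same transcript, gave different results. ILMN_2196347 had log2 values of 8.23, 8.77 and 8.42 on the siHBO1 arrays, against 8.99, 8.86 and 8.85 on the siCtrl arrays. Every siHBO1 array lay below every siCtrl array, as for 4.55% of all tested probes; no member probe had every siHBO1 array above every siCtrl array, against 5.43% of all. The log2 change was -0.43 (SE 0.18, 95% interval -0.84 to -0.01), a 1.34-fold lower value, with a limma unadjusted p of 0.047 and an adjusted p of 0.999. Its limma unadjusted p was 0.00965 without siHBO1 2, and lay between 0.086 and 0.16 when any other array was left out. ILMN_1722811 had 8.56, 7.88 and 8.47 on the siHBO1 arrays, against 8.05, 8.35 and 8.24 on the siCtrl arrays. Here the siHBO1 arrays lay on either side of all siCtrl arrays, 2 above and 1 below, and the log2 change was 0.09 (SE 0.22, 95% interval -0.40 to 0.59). Leaving out siHBO1 1 turned it to -0.04, and leaving out siHBO1 2 gave 0.31. siHBO1 2 was the highest siHBO1 array by the first probe and the lowest by the second. Why the probes differ was not tested.

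CDKN1C encodes p57, an imprinted CIP/KIP gene. Its probe ILMN_1718565 had log2 values of 6.79, 6.68 and 7.80 on the siHBO1 arrays, against 6.49, 7.67 and 7.67 on the siCtrl arrays. The values fell near 2 levels, each present in both groups: siHBO1 1, siHBO1 2 and siCtrl 1 were low, and siHBO1 3, siCtrl 2 and siCtrl 3 were high. Its range of 1.31 was the widest of the tested members, and 6.47% of all tested probes had a range at least as wide. The difference on the log2 scale was -0.19 (SE 0.39, 95% interval -1.08 to 0.70). Leaving out siCtrl 1 gave -0.58, leaving out siHBO1 3 gave -0.54, and leaving out siHBO1 2 gave 0.02, the opposite sign. COL1A1, a fibroblast marker not named in advance for a comparison with CDKN1C, had its lower and higher values on the same arrays. It had 8.71, 9.01 and 10.89 on the siHBO1 arrays, against 7.85, 9.90 and 9.81 on the siCtrl arrays. All 3 tested fibroblast probes, those of COL1A1 and COL1A2, were higher in siHBO1 (log2 changes of 0.20 to 0.51), whereas CDKN1C was lower. PDGFRB, DCN and LUM of the fibroblast markers had no tested probe. The part of COL1A1 in the CDKN1C values was not tested.

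RB1 encodes the retinoblastoma protein. Its probe ILMN_1696591 had log2 values of 9.58, 9.18 and 9.75 on the siHBO1 arrays, against 9.84, 9.69 and 9.86 on the siCtrl arrays. Of the siHBO1 arrays, 2 lay below all siCtrl arrays and siHBO1 3 lay between them. The log2 change was -0.29 (SE 0.18, 95% interval -0.70 to 0.11), a 1.22-fold lower value with a limma unadjusted p of 0.138. It was -0.13 without siHBO1 2 and -0.41 without siHBO1 3.

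**Figure D2:**
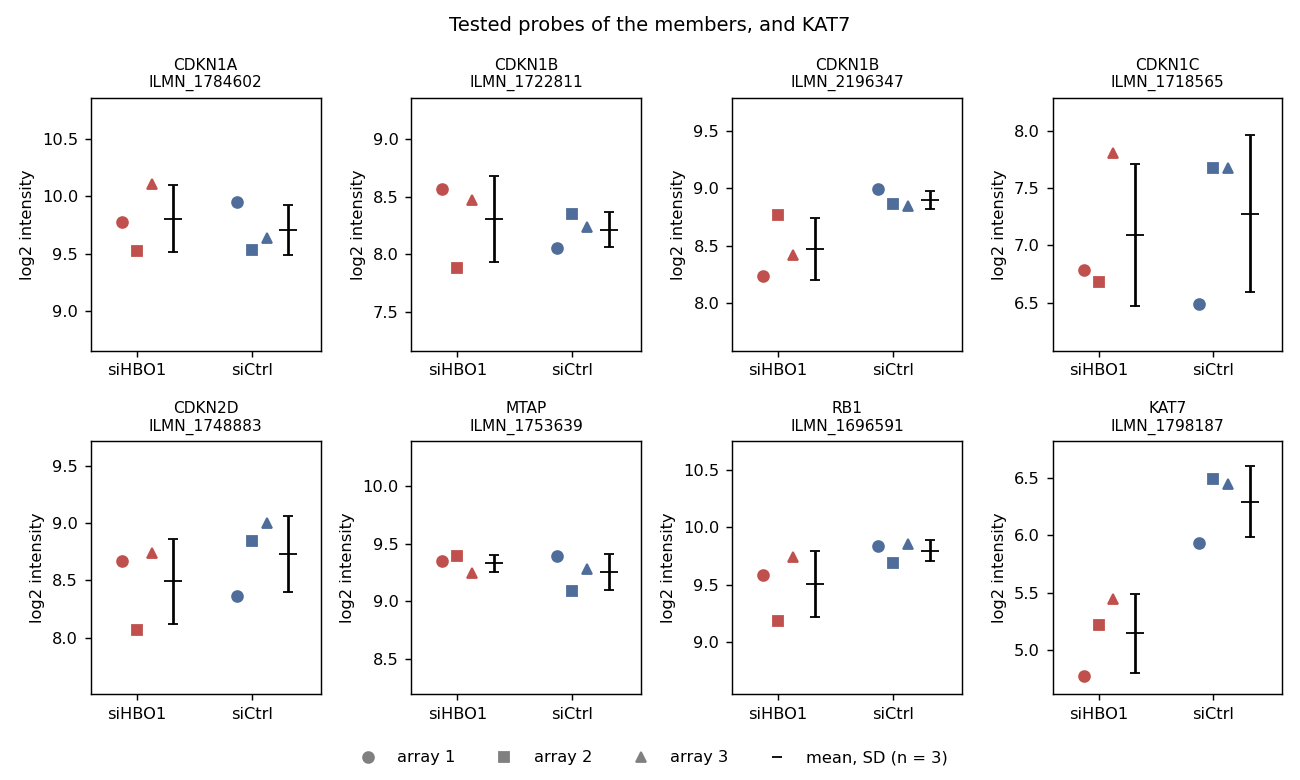
Log2 intensity after background correction and quantile normalization for each tested member probe and for KAT7, siHBO1 left and siCtrl right, with a marker shape per array number and the mean with SD (n = 3) beside the points; every panel spans 2.2 log2 units. KAT7 and the CDKN1B probe ILMN_2196347 are the panels whose groups do not overlap, and CDKN1C has the widest spread among the members.

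**Figure D3:**
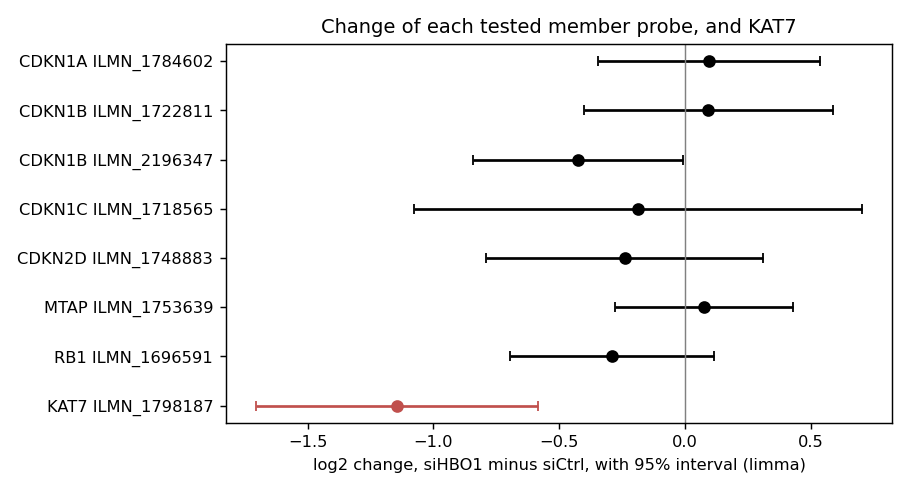
Log2 change (siHBO1 minus siCtrl) of each tested member probe in black and of KAT7 in red, points with 95% intervals from limma. The interval of the CDKN1B probe ILMN_2196347 ends at -0.01, and those of the other 6 member probes include 0.

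For 4 of the 7 tested member probes, those of CDKN1A, CDKN1C, CDKN2D and RB1, the siHBO1 arrays had the same order. In it siHBO1 3 was the highest and siHBO1 2 the lowest siHBO1 array, a pattern that 20.05% of all tested probes had. This order was not named in advance, so setting the shares side by side is a description and no test. The genes whose log2 values followed CDKN1C most closely over the 6 arrays, out of 15968 other named probes, were PEBP1 (Pearson r 0.999), ALDH3A1 (0.996) and CTTNBP2 (0.995). PEBP1 is an inhibitor of RAF kinase and ALDH3A1 an aldehyde dehydrogenase. ALDH3A1 had 7.48, 7.15 and 9.03 on the siHBO1 arrays, against 7.03, 8.94 and 8.75 on the siCtrl arrays, the same low and high arrays as CDKN1C. PEBP1 had 11.63, 11.57 and 11.93 on the siHBO1 arrays, against 11.53, 11.89 and 11.89 on the siCtrl arrays. All points share the same 6 arrays, and a search over this many probes with 6 arrays finds high r readily. CTTNBP2 was dim, detected on 1 of 3 siHBO1 and 2 of 3 siCtrl arrays.

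**Figure D4:**
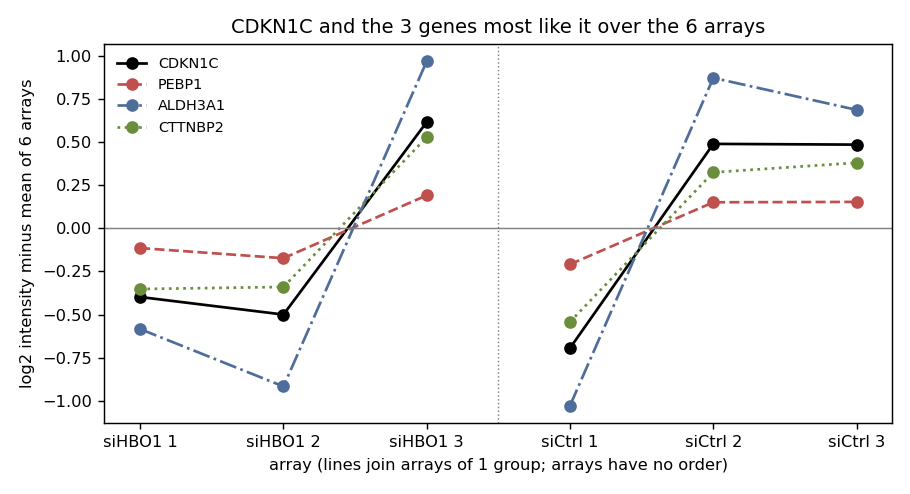
Log2 intensity minus the mean of the 6 arrays for CDKN1C and the 3 genes with the highest Pearson correlation with it; siHBO1 arrays are left of siCtrl arrays, and lines join arrays of 1 group. All 4 genes are below their mean on siHBO1 1, siHBO1 2 and siCtrl 1 and above it on the other arrays.

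Genes of the same pathway were taken as lists of probes, and 0 probes of any list passed a limma adjusted p under 0.05. Among the kinases that INK4 proteins bind and their cyclins, 4 of 6 probes were tested, 2 lower and 2 higher (median 0.01). CCND3, a D-type cyclin, had a log2 change of 0.26 (SE 0.16), CDK4 one of -0.13 (SE 0.13) and CDK6 one of 0.14 (SE 0.30). CCND2 was not tested. Of 11 tested probes for cyclins E and A, CDK2 and its activators, 7 were lower and 4 higher (median -0.03). MNAT1 and CCNH, subunits of the CDK-activating kinase, had changes of -0.42 (SE 0.20) for MNAT1 and of -0.25 and -0.32 for the 2 probes of CCNH. CDC25A, the phosphatase that activates CDK2, had -0.32 and 0.08 by its 2 probes. Of 20 tested probes for the RB family and E2F, 10 were lower and 10 higher (median -0.00). RBBP4, a histone-binding partner of RB, had -0.71, -0.19 and 0.19 by its 3 probes, and the first of these had SE 0.20 and a limma unadjusted p of 0.00753. Its first and second probes had every siHBO1 array below every siCtrl array, against 4.55% of all tested probes. LIN37, a subunit of the DREAM complex, had 0.41 (SE 0.21) and E2F5 had 0.27 (SE 0.17). For LIN37 every siHBO1 array lay above every siCtrl array, against 5.43% of all tested probes. The LIN37 probe (signals of 198 to 235) and the first RBBP4 probe (205 to 294) were dim.

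Genes that control p21 and p27 protein had 22 tested probes, 14 lower and 8 higher (median -0.07). SKP2, the F-box protein that recognises p27, had 3 probes and all 3 had every siHBO1 array below every siCtrl array, an order found in 4.55% of all tested probes. By ILMN_1665538 it had log2 values of 11.74, 11.84 and 11.64 on the siHBO1 arrays, against 11.97, 12.12 and 11.90 on the siCtrl arrays. Its log2 changes were -0.26 (SE 0.11), -0.27 (SE 0.15) and -0.52 (SE 0.23), with limma unadjusted p of 0.049, 0.114 and 0.0494 and an adjusted p of 0.999 each. Probes of 1 gene share its transcripts and the arrays, so they are no replicates of the difference. FBXW7, the F-box protein for cyclin E, had 0.84 (SE 0.43), 0.03 and -0.07 by 3 tested probes, and PCNA -0.24 and 0.11 by its 2 tested probes.

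Transcription regulators of the inhibitors had 29 tested probes, 13 lower and 16 higher (median 0.08). BMI1, the Polycomb protein known to repress the INK4 genes, had a difference of -0.53 on the log2 scale (SE 0.12). It had 11.45, 11.55 and 11.49 on the siHBO1 arrays, against 12.15, 12.06 and 11.86 on the siCtrl arrays. Its limma unadjusted p was 0.0014 and its limma adjusted p 0.999. CDKN2A and CDKN2B were below detection in both groups, as given above. ZBTB17, the MYC partner MIZ1, had 9.07, 9.08 and 8.89 on the siHBO1 arrays, against 8.60, 8.75 and 8.55 on the siCtrl arrays, a change of 0.38 (SE 0.16). TBX2, a repressor of CDKN1A and CDKN2A, had 0.70 (SE 0.28) by a dim probe detected on 3 of 3 siHBO1 and 2 of 3 siCtrl arrays. For ZBTB17 and TBX2 every siHBO1 array lay above every siCtrl array (5.43% of all tested probes). For BMI1 every siHBO1 array lay below (4.55% of all). In the salvage and polyamine list around MTAP, 19 probes were tested, 11 lower and 8 higher (median -0.06). ADI1, a dioxygenase of methionine salvage, had -0.49 (SE 0.21). MRI1, the isomerase that acts after MTAP, had 0.49, -0.13 and -0.06 by its 3 tested probes. The first of these, a dim probe with signals of 172 to 233, had every siHBO1 array above every siCtrl array (5.43% of all tested probes). APIP, the next enzyme, had -0.28 and -0.11. Of the 9p21 neighbours, 12 probes were tested, 9 lower and 3 higher (median -0.10), with HACD4 at -0.44 (SE 0.30), PLAA at -0.21 and TUSC1 at 0.16; a second PLAA probe, detected on 1 of 3 siHBO1 and 3 of 3 siCtrl arrays, had -0.23. The list medians are small: each changed sign under at least 1 alternative processing or without 1 array, except that of the list on p21 and p27 protein, which came to -0.0080 without siCtrl 1 and -0.017 without siHBO1 3.

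**Figure D5:**
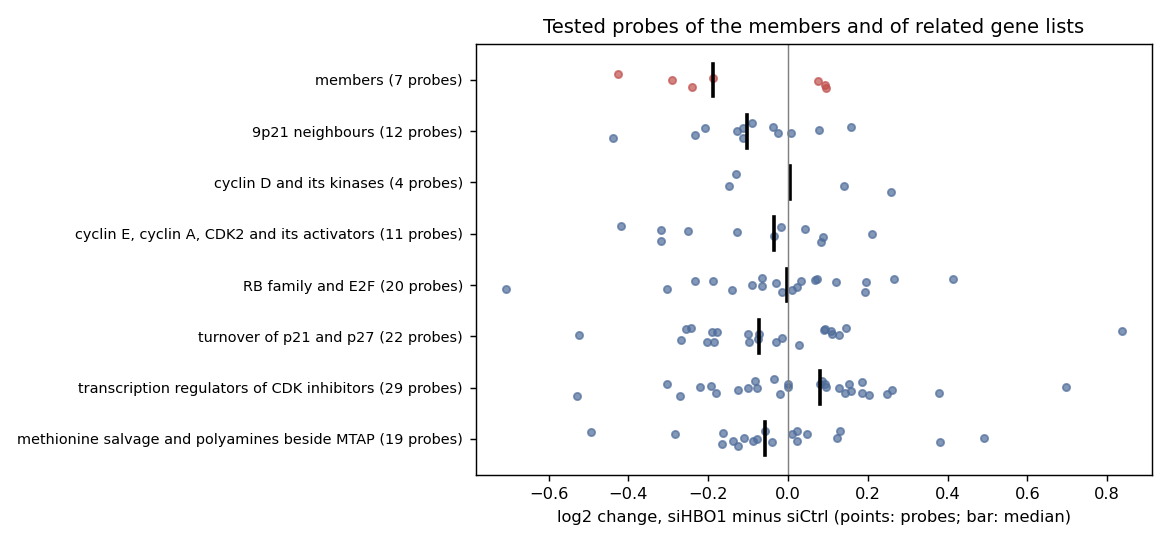
Log2 change (siHBO1 minus siCtrl) of each tested probe of the members, in red, and of the related gene lists, in blue; black bars are medians. The member median is -0.19, which turned positive without siHBO1 2 or siCtrl 3, and the list medians run from -0.10 to 0.08.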

How the data were processed

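Total RNA of SKOV-3 cells, labelled with biotin, was measured on Illumina bead arrays. Per the file headers, the deposited intensity is the mean bead signal of a probe, on a linear scale with no scaling between arrays visible, and the deposited detection p-value is set against the array's negative control beads. The deposited log2 table shares one distribution between arrays and has the rank order of the intensities (Spearman 1, median 5.99 in each column); the sources used here do not give its background or normalization method, it shows no centring by gene, and it holds levels, so it has no direction. The submitters' processing notes list lumi and GenomeStudio.

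Intensities were corrected and quantile-normalized with neqc (normexp from the detection p-values, offset 16) in limma 3.58.1 (R 4.3.3). A probe was kept where 3 or more of the 6 arrays had a detection p under 0.05 (20744 probes), and each probe stayed separate. siHBO1 was compared with siCtrl by lmFit and eBayes (trend on intensity; no covariates; two-sided), with Benjamini-Hochberg adjustment over all kept probes. The fit was tested on simulated data with independent noise for each probe and array, which does not cover deviations that probes share. Of 47314 probes, 30110 had 1 symbol, 8 several and 17196 none. The gene identifiers of 30071 probes with 1 symbol matched the RefSeq table of GRCh38.p14, and 0 symbols changed. That table gave the gene order along 9p21.

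Members and lists were chosen with earlier results of these data known. Every member probe, KAT7 and each 9p21 neighbour (by its detection) were named, of each list also the 3 genes with the smallest p, and the 3 genes most correlated with the member probe of widest range. The number of arrays limits the precision.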

Additional observations from a re-analysis of the deposited data

How the results depend on the processing

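The 7 tested member probes were refitted under 16 alternatives: no background correction, an offset of 50, median scaling, 3 other filters, the authors' processed values, 1 probe per gene, the replicate block, array weights and each array left out. Of 111 values, 104 kept the reported sign and 0 passed the threshold (limma adjusted p 0.353 to 1.00). The others were MTAP at -0.0041 with median scaling (median of all probes then -0.05) and fits without 1 array, which ranged from -0.057 to 0.23 for CDKN1A, -0.037 to 0.31 for ILMN_1722811 of CDKN1B, -0.58 to 0.016 for CDKN1C and -0.0087 to 0.15 for MTAP. CDKN1B by ILMN_2196347 ranged from -0.57 to -0.30, but leaving out arrays could not change its sign, since its groups do not overlap. Without background correction CDKN1C was at -0.10. The median of the 7, refitted after seeing the data, ranged from -0.36 to 0.016. The 7 detected member probes per group were also 7 at a detection p under 0.01.

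Over all tested probes 0 were called, 774 at an unadjusted p under 0.05, and 0 in 14 of 16 alternatives. The replicate block called 4, with 1409 at an unadjusted p under 0.05, and array weights called 1, with 1573; none was a member. Without single arrays the unadjusted count ran from 351 to 2014, and with no filter it was 1808 of 47314. The labels name nothing that same-numbered arrays share. Their deviations correlated at 0.56, 0.02 and 0.46, and 4 of 6 arrays correlated best with their own number, a hint from the data and not the design. A slide block could not be fitted: slides are not in the labels. Dim probes limit folds, as for KAT7, and undetected probes have none.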
